A study of Mus musculus with 10 samples.

Results

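To address how trimethylation of histone H3 at lysine 27 (H3K27me3) was distributed after loss of Arid1a, the H3K27me3 summit lists of Arid1a WT and KO AB17 hepatocytes were compared. A summit is the single base at which a called peak was highest, and every summit on the autosomes was taken: 108777 in WT and 85640 in KO cells, 194417 of the 808182 autosomal summits in the 8 lists of the study. AB17 cells are C57BL/6 primary hepatocytes of Arid1a fl/fl genotype that were immortalized with SV40 large T antigen and then with H-Ras V12D under puromycin selection, so both groups carry the floxed allele and both viral genes. WT cells received the empty adenovirus Ad-GFP, and KO cells (Arid1a-/-) received Ad-Cre, an adenovirus that expresses Cre recombinase. There was 1 H3K27me3 library per genotype from 1 immortalized line, so differences could not be checked against replicates, no test was made, and intervals cover counting error only. Infection with Cre and loss of Arid1a cannot be told apart. The time between infection and harvest was not given in the sources used here.

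Arid1a is the subunit of the SWI/SNF chromatin remodelling complex that carries an AT-rich interaction domain, and Brg1, encoded by Smarca4, is its ATPase. H3K27me3 is deposited by the methyltransferase Ezh2 or Ezh1 in Polycomb repressive complex 2. Chromobox proteins of Polycomb repressive complex 1, such as Cbx2 and Cbx8, read the mark. In differentiated cells it typically covers the CpG-rich starts of silent developmental genes, often as broad domains, and SWI/SNF complexes can oppose Polycomb at such sites.

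The following bases surround summits at 3 of the 10 starts that were marked most strongly in both genotypes (Onecut3, Phf21b and Wnt1), at 2 starts with a strong summit in WT cells and none in KO cells within 10 kb (Adam19 and Kcnab3), and at 2 with the reverse (Hoxd8 and Dll3). They are shown because CpG dinucleotides, in capitals, are the sequence feature most closely tied to Polycomb targets. Each run is 201 bases of GRCm38 (mm10), forward strand, 5′ to 3′, centred on the summit. The windows were chr10:80495031-80495231 in an exon of Onecut3, chr15:84854454-84854654 in an intron of Phf21b, chr15:98791708-98791908 in an exon of Wnt1, chr11:46057213-46057413 in an intron of Adam19, chr11:69326708-69326908 in an exon of Kcnab3, chr2:74703952-74704152 upstream of Hoxd8 in an intron of the antisense transcript Hoxd3os1, and chr7:28301521-28301721 in an exon of Dll3.
Onecut3 (WT summit): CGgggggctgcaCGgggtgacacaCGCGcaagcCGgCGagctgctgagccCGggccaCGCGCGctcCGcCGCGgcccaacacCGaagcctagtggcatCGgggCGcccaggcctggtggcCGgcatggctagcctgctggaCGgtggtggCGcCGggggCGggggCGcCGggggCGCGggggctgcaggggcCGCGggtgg
Phf21b (WT summit): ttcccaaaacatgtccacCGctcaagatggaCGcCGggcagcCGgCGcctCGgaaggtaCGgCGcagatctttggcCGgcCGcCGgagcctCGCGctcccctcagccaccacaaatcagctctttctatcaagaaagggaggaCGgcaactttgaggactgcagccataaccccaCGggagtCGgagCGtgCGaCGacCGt
Wnt1 (WT summit): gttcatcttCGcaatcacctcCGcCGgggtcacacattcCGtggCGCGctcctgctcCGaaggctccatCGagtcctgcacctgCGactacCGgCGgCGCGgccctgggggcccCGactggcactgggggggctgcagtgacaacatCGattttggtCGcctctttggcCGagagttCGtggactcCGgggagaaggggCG
Adam19 (WT summit): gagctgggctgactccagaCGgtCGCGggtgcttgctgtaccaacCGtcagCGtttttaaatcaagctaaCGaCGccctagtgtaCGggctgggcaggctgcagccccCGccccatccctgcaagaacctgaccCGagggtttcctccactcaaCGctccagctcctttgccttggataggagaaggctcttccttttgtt
Kcnab3 (WT summit): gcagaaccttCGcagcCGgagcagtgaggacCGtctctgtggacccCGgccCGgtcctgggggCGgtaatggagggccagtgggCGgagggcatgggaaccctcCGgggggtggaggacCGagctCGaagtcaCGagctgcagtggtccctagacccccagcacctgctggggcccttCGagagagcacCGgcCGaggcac
Hoxd8 (KO summit): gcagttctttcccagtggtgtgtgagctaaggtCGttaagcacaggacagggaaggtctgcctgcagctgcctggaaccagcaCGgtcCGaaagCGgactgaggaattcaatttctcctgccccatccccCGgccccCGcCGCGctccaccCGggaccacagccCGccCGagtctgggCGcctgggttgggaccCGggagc
Dll3 (KO summit): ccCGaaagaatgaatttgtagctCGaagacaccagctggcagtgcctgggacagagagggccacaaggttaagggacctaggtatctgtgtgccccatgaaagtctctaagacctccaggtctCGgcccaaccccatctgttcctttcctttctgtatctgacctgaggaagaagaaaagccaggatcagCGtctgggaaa
The 3 shared sites held 27, 20 and 20 CpG dinucleotides in 201 bases, and only 0.20% of WT summits held 27 or more and 0.654% held 20 or more. The WT-only sites held 11 at Adam19 and 14 at Kcnab3, and the KO-only sites 13 at Hoxd8 and 4 at Dll3. Of WT summits 2.14% held as many as Adam19 and 1.37% as many as Kcnab3. Of KO summits 1.51% held as many as Hoxd8 and 26.5% as many as Dll3. The summit values ran from 36.8 to 63.1 at the shared sites and from 6.21 to 10.9 at the others. Across all summits the median was 2 CpG in each genotype, and 14.9% of WT and 14.0% of KO summits held none, so most H3K27me3 summits lay outside CpG-rich sequence.

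Fewer H3K27me3 summits were listed in KO than in WT cells, with a KO to WT ratio of 0.787 (95% interval 0.780-0.794). The ratio was 0.818 (0.797-0.840) among strong summits, whose −log10 q-value reached 5, of which there were 12373 in WT and 10122 in KO cells, and 0.474 (0.411-0.547) among those of at least 20. The q-value is the false discovery rate that the peak caller gave a peak against the input, and it depends on sequencing depth, which the lists do not hold, so a lower count cannot be told apart from a shallower library. All 19 autosomes had fewer summits in KO cells, from a ratio of 0.640 on chromosome 13 to 0.881 on chromosome 15. For summits of at least 5 the ratio ran from 0.677 on chromosome 17 to 1.11 on chromosome 14, where 250 KO and 226 WT summits were listed.

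Next, summits were matched within 1 kb. Of WT summits 54.6% (54.3-54.9) had a KO summit within 1 kb, and 68.3% (68.0-68.6) of KO summits had a WT summit. Agreement rose with strength on the WT side, from 38.4% of summits under 2 to 79.5% of those between 5 and 7, and was 74.4% at 20 or more. On the KO side it stayed between 63.4% and 74.4% in every class of value. When both partners had to reach 5, the shares were 35.7% of WT and 43.7% of KO strong summits. A matched pair lay a median of 338 bp apart counted from WT summits, and 18.5% of matched WT summits had a KO summit within 100 bp. Spearman's rho between the value of a summit and that of its partner was 0.352 over the 59371 matched WT summits. It is a description across sites of 2 libraries.

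**Figure D1:**
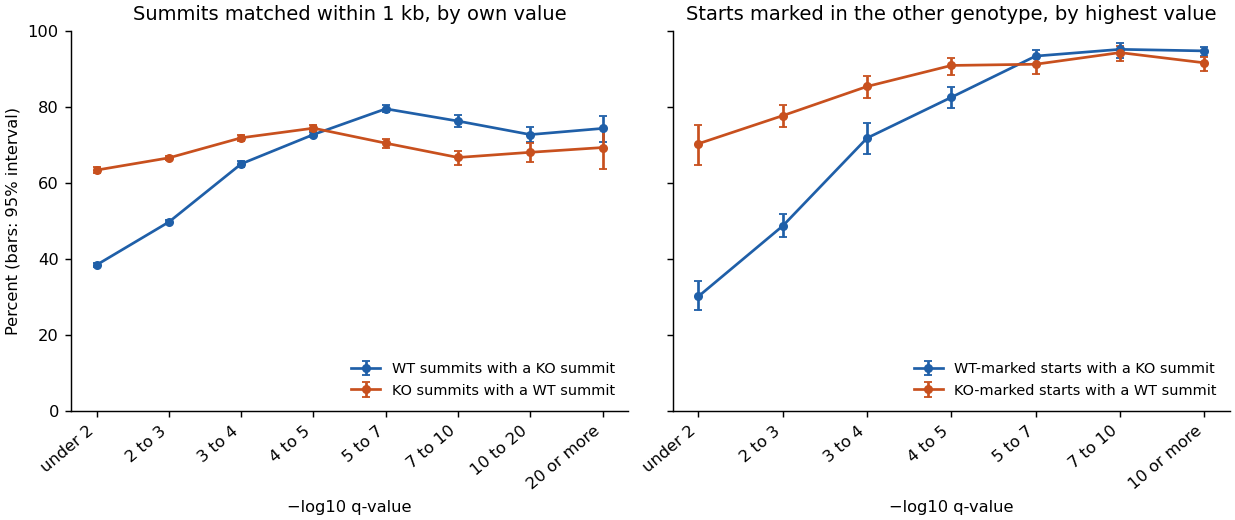
Percent of WT (blue) and KO (orange) H3K27me3 summits with a summit of the other genotype within 1 kb, by −log10 q-value (left), and percent of gene starts marked in one genotype that were also marked in the other, by the highest value at the start (right). Bars are 95% Wilson intervals. The WT shares climb from 38.4% and 30.1% in the weakest class, while the KO shares begin at 63.4% and 70.4%.

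Most unmatched strong summits still had the other genotype's mark nearby. Of the 2783 WT summits of at least 5 without a match, 87.3% had a KO summit between 1 and 3 kb away and 25 had none within 10 kb. Of the 3121 KO summits of that kind, 75.7% had a WT summit between 1 and 3 kb away and 94 had none within 10 kb. At a value of at least 10, 0 of 671 unmatched WT summits and 23 of 553 unmatched KO summits lay more than 10 kb from the other list, and those 23 were all within 50 kb. Thus strong sites isolated by more than 10 kb were more often KO sites, although the KO list was shorter and these thresholds depend on depth. Some KO sites lay just past that cut, such as those nearest Sim2 (10010 bp), Hoxd1 (10023 bp) and Dlx5 (10049 bp). A list gives 1 position for a peak whatever its width, so such sites may lie near a wide peak of the other genotype. Of the 94 KO sites, 39.4% lay in soft-masked repeats and 22.3% were within 1 kb of an H3K9me3 summit of KO cells, against 13.4% and 8.6% of matched strong KO summits. At the 25 WT sites the repeat share was 36.0% (20.2-55.5). Repeats cover 33.5% of the autosomes, which lies within the intervals of both shares (30.1-49.5 for KO sites), so the isolated sites were near the genome's repeat share and matched strong summits below it. H3K9me3 is the mark of constitutive heterochromatin, and its part in these sites was not tested.

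**Figure D2:**
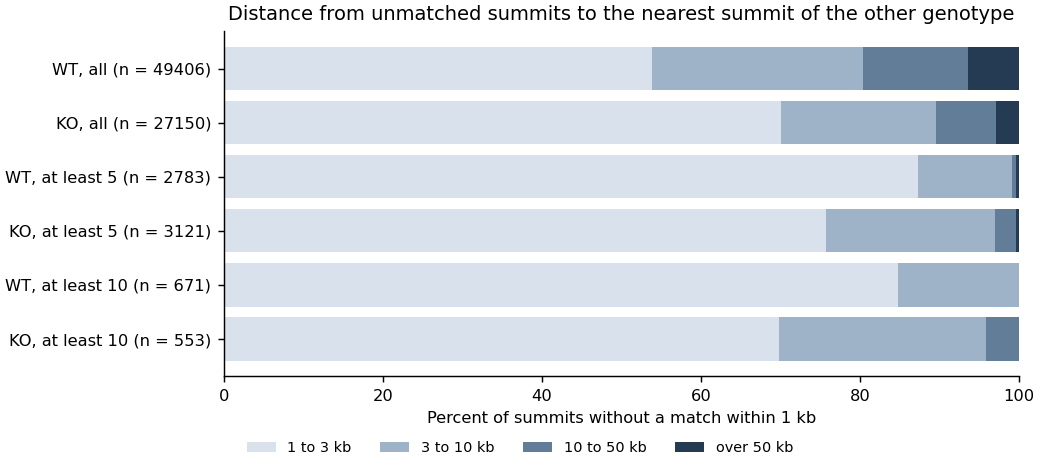
Distance from H3K27me3 summits without a match within 1 kb to the nearest summit of the other genotype, for all summits and for those whose −log10 q-value reached 5 or 10. Each bar adds to 100% of the unmatched summits of that class. The share beyond 10 kb is 0% for WT summits of at least 10 and 4.16% for KO summits of at least 10.

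Regions with a single summit overlapped the other genotype least. After summits of a list at most 3 kb apart were merged, 34.3% of the 19270 WT regions with 1 summit overlapped a KO region, against 96.2% of the 5172 with 5 to 9 summits. Their median spans were 1 and 7831 bp, and 32031 bp for WT regions with 20 or more. Each region was extended by 500 bp, so a longer region had more room to overlap, and the shares cannot be read apart from length. All 71 WT regions and all 39 KO regions with 20 or more summits overlapped a region of the other genotype. Inside them the other genotype had a median of 0.714 KO summits per WT summit and 0.75 WT summits per KO summit, so each list was thinner where the region was chosen on the other. In 25-kb bins with 5 or more summits, 238 of 9803 WT bins (2.43%) had no KO summit and 23 of 7523 KO bins (0.306%) had no WT summit.

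Genes were then classed by summits within 2 kb of the outermost annotated start of 20807 autosomal protein-coding genes. Both genotypes marked 3716 starts (17.9% of all), WT cells alone marked 1303 (6.26%) and KO cells alone 560 (2.69%). A strong summit, of at least 5, was present in both genotypes at 1597 starts (7.68%). Strong WT summits with no KO summit within 2 kb were found at 122 starts (0.586%), and the reverse at 152 (0.731%). Strength separated the classes. Of starts whose highest WT value was at least 10, 94.8% (93.4-96.0) were also marked in KO cells, compared with 30.1% (26.4-34.1) of starts whose highest value was under 2.

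Signalling ligands of development were among the most persistently marked genes. Of 19 Wnt ligands, 15 were marked in both genotypes and 1 in KO cells only. Wnt1 had values of 36.8 in WT and 39.1 in KO cells, and Wnt3a 34.1 and 23.5. Wnt7b was the exception, with a KO summit of 23 at 13 bp from its start and the nearest WT summit 2195 bp away. Both genotypes marked 11 of 20 Fgf ligands, among them Fgf11 (36.4 and 22.6) and Fgf8, a ligand of limb and brain patterning (23.6 and 21.2). Within 10 kb of Fgf starts there were 65 KO and 45 WT summits, a ratio of 1.44, while the ratio over all genes was 0.805. The neighbouring genes Fgf3 and Fgf4 gave much of it, with 9 KO and 4 WT summits and 10 KO and 4 WT summits, which overlap, and Fgf23 had 9 and 3. Of 13 Hedgehog pathway genes, 7 were marked in both, including the ligand Ihh (33.5 and 25.9) and its receptor Ptch1 (8.45 and 9.74), and the transcriptional effector Gli1 had 6 WT and 1 KO summits within 10 kb.

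Families of lineage transcription factors differed in how many members were marked in 1 genotype only. Marks in both genotypes covered 11 of 18 Sox genes and 10 of 15 T-box genes, and no member of either list was marked in 1 genotype only. Of 41 forkhead genes, 17 were marked in both, 5 only in WT cells and 1 only in KO cells. The 9 Pax genes had 3, 1 and 1 such starts, and the 5 Gata genes 1, 1 and 2. The neural crest factor Sox10 had values of 30.7 in WT and 27.9 in KO cells, and the pluripotency factor Sox2 had 23.3 and 17.7. Tbx21, the master factor of T helper 1 cells, had 24.9 and 15.5, and Tbx20, a heart factor, 17.8 and 14.8. Among 124 homeobox genes outside the Hox clusters, 59 (47.6%) were marked in both, and 15 were marked by each genotype alone, or 12.1% against 6.26% and 2.69% of all starts. A strong summit lay behind 11 of those WT-only and 12 of those KO-only starts, and every one of these had a summit of the other genotype within 10 kb. Of 42 tissue-specific bHLH genes, 23 were marked in both, 3 only in WT cells and 6 only in KO cells. The latter included the neuronal factors Neurod2 (30.3) and Nhlh2 (21.0) and the spinal cord factor Olig3 (24.4). Their nearest WT summits lay 7834, 2695 and 4385 bp from the start.

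**Figure D3:**
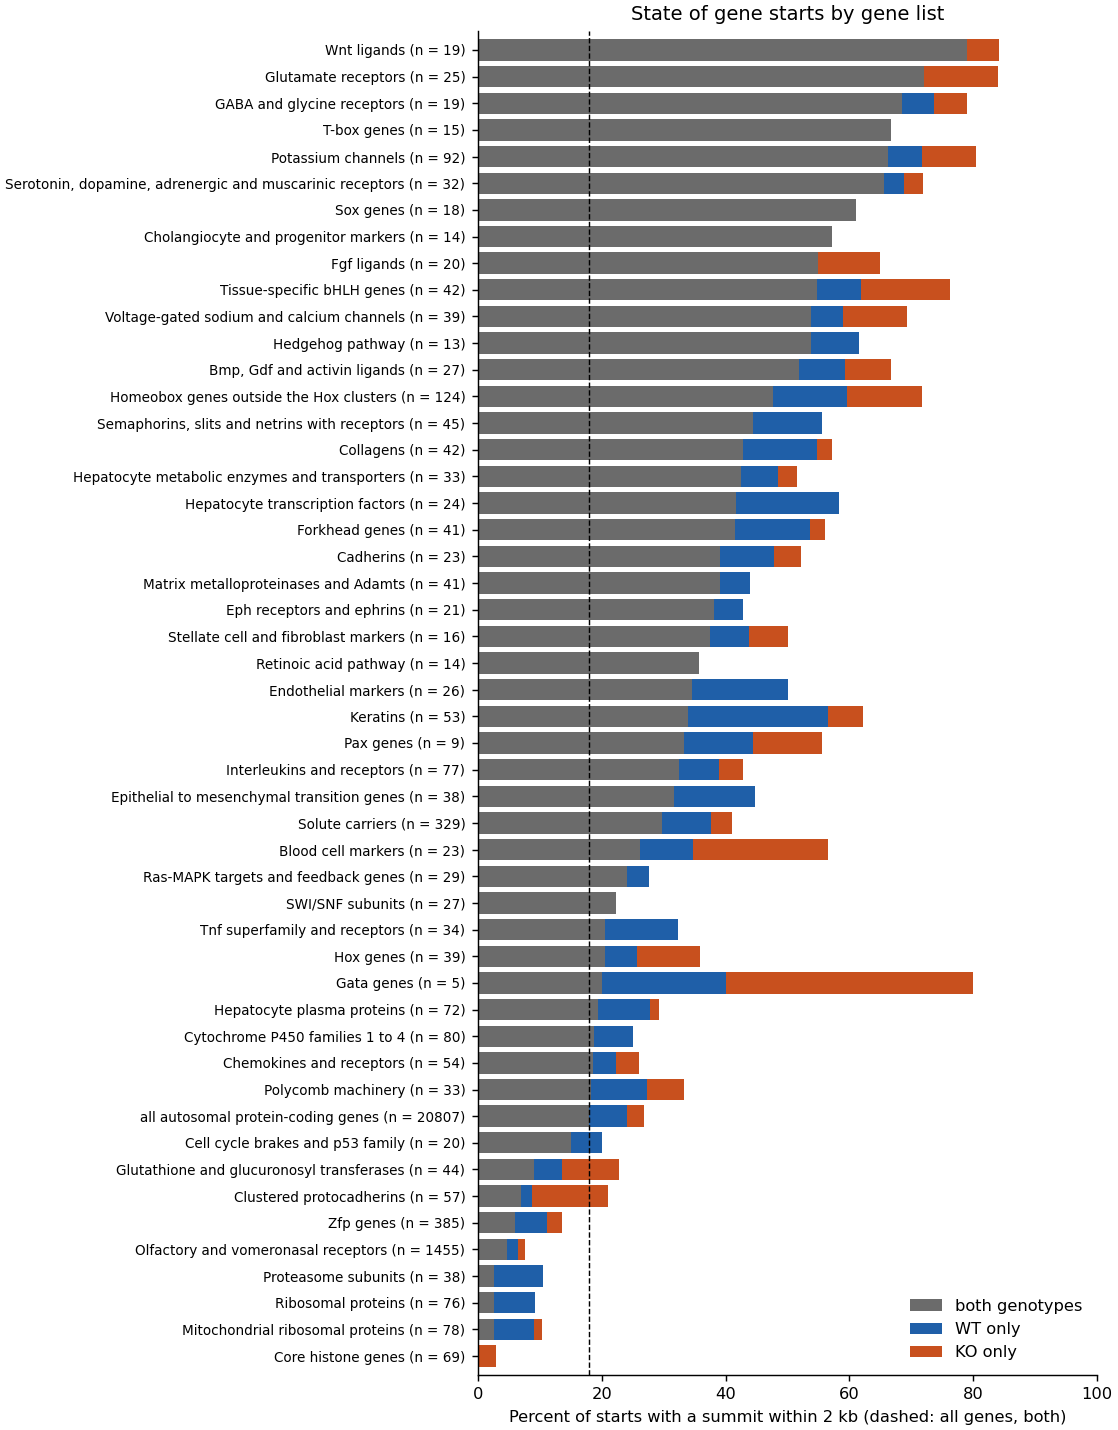
Percent of gene starts with an H3K27me3 summit within 2 kb in both genotypes (grey), in WT cells only (blue) and in KO cells only (orange), for 49 gene lists and all autosomal protein-coding genes, ordered by the share marked in both. The dashed line is the share of all genes marked in both, 17.9%. Wnt ligands reach 78.9%, and proteasome subunits stand at 2.63%.

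Ion channel and neurotransmitter receptor genes formed the second large group. Marked in both genotypes were 61 of 92 potassium channel genes with their auxiliary subunits, 18 of 25 glutamate receptors, 13 of 19 GABA and glycine receptors, and 21 of 32 serotonin, dopamine, adrenergic and muscarinic receptors, against 17.9% of all starts. Potassium channel genes were marked in WT only at 5 starts (5.43%), near the 6.26% of all starts, and in KO only at 8 (8.70%, against 2.69%). The heart channel Kcnh2 (14.3) and the axonal channel Kcna1 (15.6) had a KO summit at the start, with a WT summit 2083 and 2139 bp away, just outside the window. The glial channel Kcnj10 was the mirror image, with a WT value of 18 and a KO summit 2093 bp away. Grin2c, an NMDA receptor subunit of the cerebellum, had a KO summit of 7.99 at 609 bp from its start and no WT summit nearby. The WT summit nearest the start, at 16919 bp (23.3), had a KO summit beside it, at 16022 bp (13.3).

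Among 24 hepatocyte transcription factors, 10 were marked in both genotypes, 4 in WT only and none in KO only. The fatty acid sensor Ppara had values of 26.5 in WT and 15.3 in KO cells, Cebpa 20.4 and 18.1, and the pioneer factor Foxa3 24.4 and 17.4. Foxa1 stood at 19 in WT and 5.52 in KO cells. Prox1 had a WT value of 15.5 and its nearest KO summit at 2581 bp. Foxa2 (2.27) and Gata4 (1.78) had weak WT summits, and for Foxa2 the nearest KO summit was 240954 bp away. Of 72 plasma protein genes, 14 were marked in both, 6 only in WT cells and 1 only in KO cells, close to the 17.9%, 6.26% and 2.69% of all genes. The fetal liver protein Afp (2.79), the complement component C3 (2.29) and the apolipoprotein Apoc3 (2.54) were in the WT-only group, and Fgb, a fibrinogen chain, was the KO-only gene (3.38). No summit of either genotype lay within 2 kb of Alb, Ttr, Apoa1 or Apob, the defining secreted products of hepatocytes.

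Markers of the other liver cell types were marked in both genotypes in 9 of 26 endothelial, 6 of 23 blood cell, 6 of 16 stellate cell and fibroblast, and 8 of 14 cholangiocyte and progenitor genes, while over all starts 17.9% were marked in both, 6.26% only in WT cells and 2.69% only in KO cells. Endothelial markers had no KO-only and 4 WT-only starts, namely Plvap (17.9), Vwf (3.44), Flt4 (3.44) and Cdh5. Cdh5, which encodes vascular endothelial cadherin, had 4 WT summits of at most 2.84 within 2 kb and no KO summit there, but its nearest KO summit, 4034 bp away, had a value of 5.38. Within 10 kb of Cdh5 there were 9 WT and 4 KO summits. Blood cell markers had 2 WT-only starts, Spi1 (2.69) and Cd8a (4.01), and 5 KO-only starts. Of 38 genes of the epithelial to mesenchymal transition, 12 were marked in both, 5 only in WT cells and none only in KO cells. Epithelial transcription factors were strong in both genotypes, with Ovol1 at 35.2 and 21.4 and Grhl2 at 26.7 and 17.4. The mesenchymal factors Twist2 (3.44) and Prrx1 (2.29) had weak WT summits, with the nearest KO summit 27682 and 459848 bp away. Gsc, a homeobox gene of the organizer, was marked in both (14.0 and 16.6), as were the kidney progenitor gene Six2 (21.1 and 14.6) and the ubiquitin ligase gene Rnf125 (2.29 and 1.47), while Pmp22, Atg10, Smarca4, Ctcf and Rad21 had no summit of either genotype within 10 kb.

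Hox genes, which set position along the body axis, were marked in both genotypes at 8 of 39 starts, a share near the 17.9% of all starts. They were marked in WT only at 2, near the 6.26% of all starts, and in KO only at 4 (10.3%, against 2.69%). Those 4 starts were not spread over the clusters. Hoxc10, Hoxc5 and Hoxc9 lie in 1 stretch of HoxC, and Hoxd8 lies in HoxD. The HoxA and HoxB clusters held 9 and 33 WT summits and 8 and 32 KO summits. In HoxC the counts were 17 in WT and 25 in KO cells. A stretch of 25.6 kb that contains the starts of Hoxc10, Hoxc5 and Hoxc9 held no WT summit between its flanking WT summits. It held 11 KO summits, with values of 2.50 to 7.29, of which 7 reached 5. The outermost start of Hoxc5 (102967443) opens an annotation that ends at 103017429, and it lies beside the Hoxc10 start (102966796). These 2 KO-only starts therefore share summits at 1 locus. Elsewhere in the cluster the order was opposite, since Hoxc12 had a WT value of 25.7 with its nearest KO summit at 2213 bp, and Hoxc6 a weak WT summit (2.95) with the nearest KO summit at 6732 bp. In HoxD no WT summit was listed over 74.7 kb that hold the starts of Hoxd10, Hoxd9, Hoxd8, Hoxd4 and Hoxd3, where KO cells had 4 summits, 3 of them with values from 10.9 to 20.9. That WT gap was flanked on one side by the strongest Hox summit of either list (41.9). KO summits were missing toward the right edges of HoxB and HoxC. In HoxC the last KO summit lay at 102991525, and WT summits with values of 1.67 to 5.21 followed up to 103015717. In HoxB the last KO summit lay at 96282354, and WT summits followed at 96297256 (3.44), 96298210 (4.08) and 96372788 (1.47). A summit list gives 1 position for a peak whatever its width, so a stretch without summits may lie inside a wide peak whose summit is elsewhere.

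**Figure D4:**
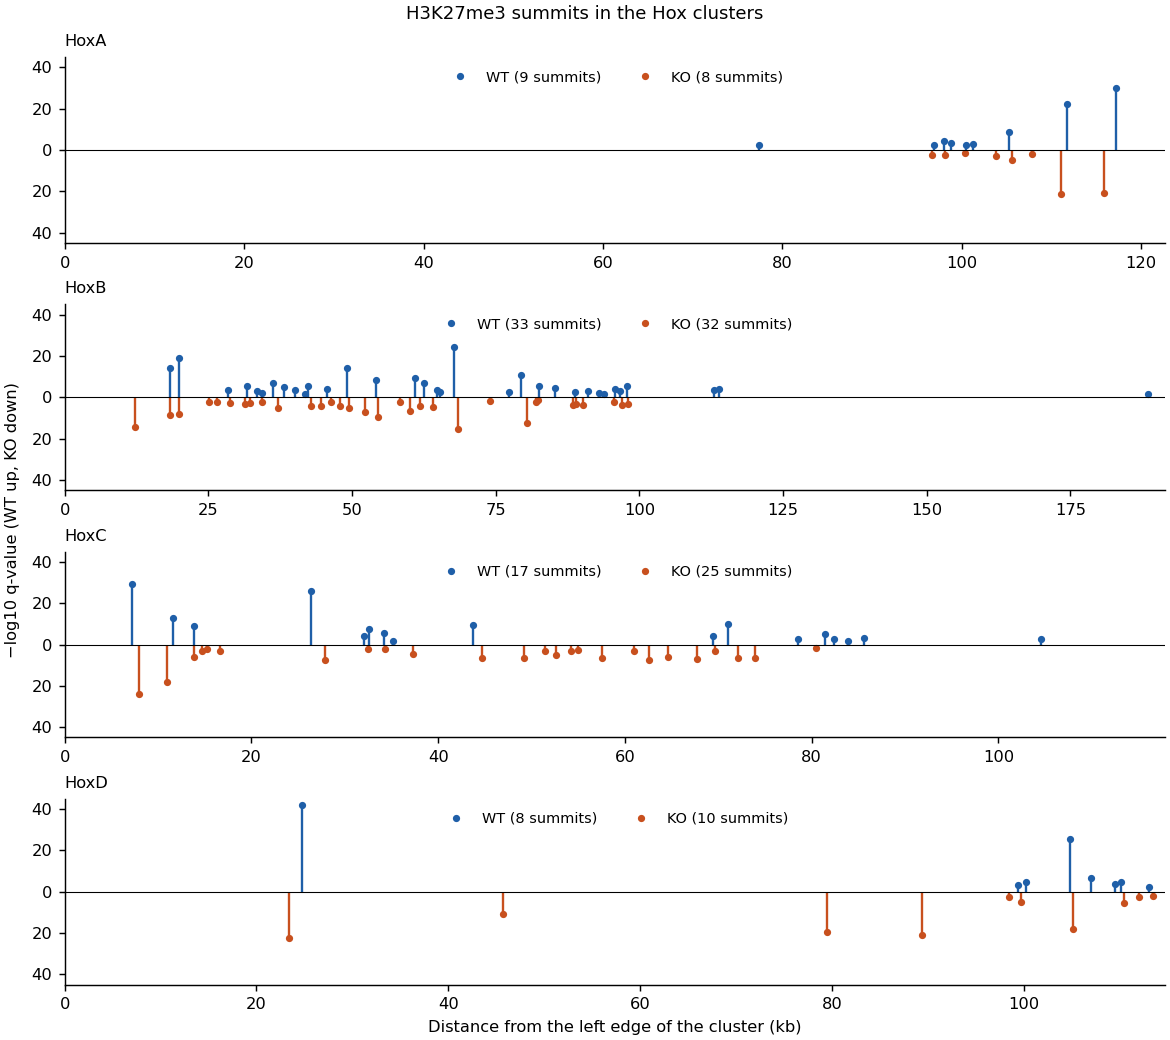
H3K27me3 summits in the 4 Hox clusters of WT (blue, upward) and KO cells (orange, downward). The x axis is the distance from the left edge of the cluster in kb, and the height of a line is the −log10 q-value. HoxB holds 33 WT and 32 KO summits, whereas WT summits are missing from 25.6 kb of HoxC and 74.7 kb of HoxD in which KO cells have 11 and 4. Past the last KO summit of HoxB and of HoxC, toward the right edge, only WT summits are listed.

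The starts with a strong summit in one genotype only were then followed outward. Of the 122 WT starts, 104 had a KO summit within 5 kb, and in 79 that summit had a value of at least 5. Of the 152 KO starts, 120 had a WT summit within 5 kb, and in 106 it had a value of at least 5. The leading WT-only genes were of this kind. Nxph4, a neuronal secreted protein, had a WT summit of 49.2 at 1996 bp and a KO summit of 38.4 at 3002 bp downstream of its start. The motor neuron homeobox gene Mnx1 had a WT summit of 44.7 at 1187 bp and a KO summit of 25 at 3915 bp. Evx1 had 34.9 in WT cells at 1450 bp and 25.5 in KO cells at 4018 bp. The leading KO-only genes mirrored them, since Uncx had a KO summit of 28.5 at 1051 bp and a WT summit of 55.1 at 3851 bp, and Lhx1 a KO summit of 29.8 at 1579 bp and a WT summit of 43.5 at 2102 bp. In these genes the mark was listed in both genotypes, and the position of the single highest base decided the class. Cbx8 differed from them within 10 kb only. Beside its KO summit of 30.1 at 1653 bp, the 1 WT summit in that range had a value of 1.79. Farther out on the side of that KO summit, both genotypes had a strong summit. The KO summit there, at 14762 bp from the start, had a value of 43.1. A WT summit of 46.1 lay 789 bp from it.

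At 538 starts (2.59%) a WT summit had no KO summit within 10 kb, and at 120 (0.577%) a KO summit had no WT summit within 10 kb. A start of this kind with a strong summit occurred 8 times in each direction (0.0384% of starts each). The 8 WT starts were those of Adam19, Gm17657, Kcnab3, Tbc1d22b, Kmt2a, Chchd7, Mfsd6 and Plag1. Gm17657 and Tbc1d22b share 1 summit, as do Chchd7 and Plag1, a pair of neighbouring starts, so the 8 starts stand for 6 sites. Adam19, a cell surface metalloproteinase, had the highest value (7.77), with 4 WT summits within 10 kb and the nearest KO summit 64040 bp away. Kmt2a, which encodes an H3K4 methyltransferase, had a value of 5.94 and 4 WT summits, and the nearest KO summit was 89241 bp away. The KO starts were those of Hoxd8, Dll3, Grin2c, Gm3269, Hoxc10, Hoxc5, Gm21103 and Trpa1. The outermost annotated start of Hoxc5 lies beside that of Hoxc10, so these 2 starts share summits at 1 locus. Hoxd8 had a KO value of 10.9 and the nearest WT summit at 21567 bp. Dll3, a Notch ligand, had 8.84, with the nearest WT summit at 10800 bp. Gm3269 and Gm21103 belong to a family of near-identical copies on chromosome 14, between which short reads may not be told apart. Trpa1, a sensory ion channel, had a single KO summit (5.22) and no WT summit within 64712 bp.

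**Figure D5:**
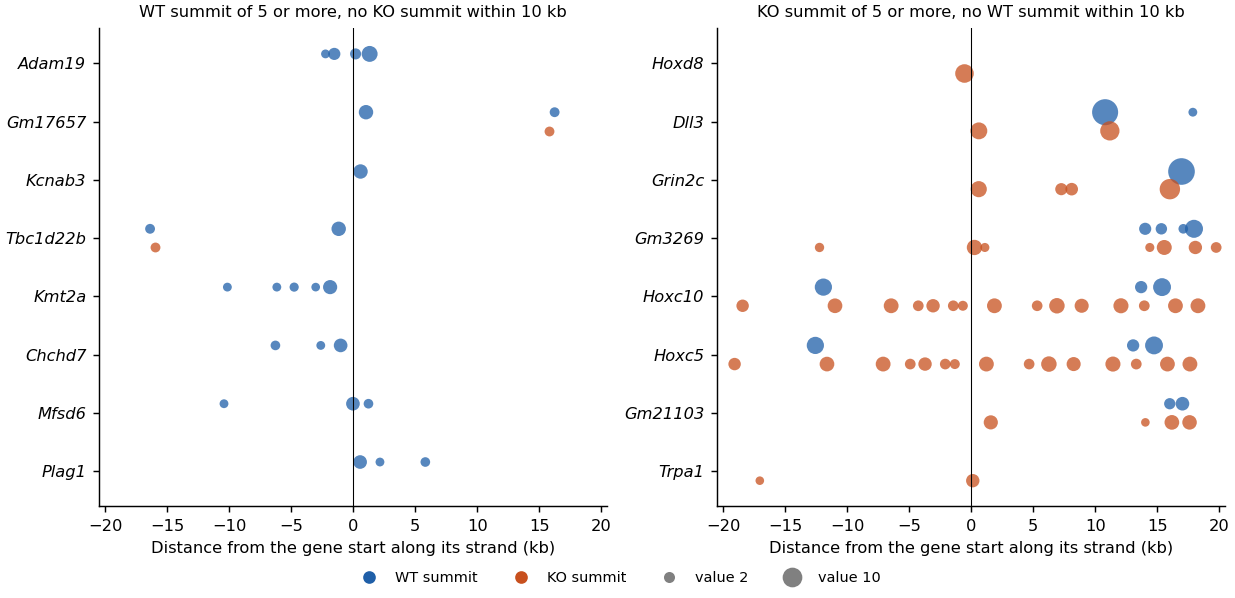
H3K27me3 summits within 20 kb of gene starts with a summit of at least 5 in one genotype and none of the other within 10 kb (left, WT; right, KO). Points are WT (blue) and KO (orange) summits, their area grows with the −log10 q-value, and the x axis is the distance from the start along the gene's strand in kb. WT sites of Adam19 and Kmt2a carry 4 WT summits within 10 kb and no KO summit.

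One-sided summits, most of them weak, also came in gene clusters. Of 53 keratin genes, 18 were marked in both genotypes, 12 in WT only (22.6%) and 3 in KO only (5.66%). A strong summit lay behind 2 of those WT-only and 1 of those KO-only starts. The hair keratins Krt32, Krt33b, Krt34 and Krt35, adjacent on chromosome 11, had WT values of 2.84, 2.08, 1.78 and 2.29 and no KO summit within 33731 bp. Clustered protocadherins, cell adhesion molecules of neurons, leaned the other way, with 4 of 57 starts marked in both, 1 only in WT cells and 7 only in KO cells (12.3%). The strongest of them, Pcdhac2, had 11.2 in WT and 11.1 in KO cells, while the KO-only starts reached at most 4.05, and neighbouring starts share summits.

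Genes that every cell uses were rarely marked in both genotypes, and their WT-only shares were near the 6.26% of all starts. Ribosomal proteins were marked in both at 2 of 76 starts (2.63%, against 17.9% of all), in WT only at 5 (6.58%) and in KO only at none, and within 10 kb of them lay 62 WT and 31 KO summits, a ratio of 0.50 against 0.805 over all genes. Mitochondrial ribosomal proteins had 2, 5 (6.41%) and 1 of 78 starts, and proteasome subunits 1, 3 (7.89%) and none of 38. Rpl5 (4.08) and Psmb2 (2.96) were WT-only members. The muscle form Rpl3l, counted in the ribosomal list, had the highest WT value of that group (4.76), with no KO summit within 20763 bp. Because weak WT summits were matched least, these genes are set beside the median value of all WT-only starts, which was 2.40.

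The genes that encode the machinery were examined in the same way. Of 33 Polycomb genes, 6 (18.2%) were marked in both, 3 only in WT cells and 2 only in KO cells, and the first share is near the 17.9% of all starts. Epop, an accessory factor of Polycomb repressive complex 2, had 29.3 in WT and 33.9 in KO cells, Bmi1 14.3 and 9.74, and Cbx2 11.1 and 6.07. Rybp (4.08) and Pcgf3 (4.16) were marked in WT cells only, Cbx8 and Pcgf1 (3.38) in KO cells only. Of 27 SWI/SNF subunit genes, 6 (22.2%) were marked in both and none in 1 genotype, among them the neuronal subunit Actl6b (13.0 and 10.2) and Dpf3 (10.9 and 3.38). Arid1a itself had no H3K27me3 summit within 2 kb in either genotype, with the nearest at 5224 bp in WT and 6643 bp in KO cells. The deleted eighth exon cannot be read from a summit list, so the lists do not check the knockout.

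Next, starts were divided by the Arid1a summits of WT cells. Of the 7689 starts with an Arid1a summit within 2 kb, 494 (6.42%) were marked by H3K27me3 in both genotypes, 385 (5.01%) in WT only and 104 (1.35%) in KO only. Of the 13118 starts without, the shares were 24.6%, 7.0% and 3.48%. WT-marked starts were also marked in KO cells in 56.2% (52.9-59.4) of cases with an Arid1a summit and in 77.8% (76.5-79.1) without. With a Brg1 summit the share was 54.8%, and without it was 78.7%. The direction was the same, with smaller differences, for WT summits of H3K9me3 (68.6% and 77.2%), Rad21 (70.7% and 76.9%) and Ctcf (71.8% and 75.5%). For H3K9me3 summits of KO cells it was the reverse (78.0% and 73.3%). Of KO-marked starts, 82.6% with and 87.6% without an Arid1a summit were also marked in WT cells. Within 10 kb of the starts the ratio of KO to WT summits was 0.695 with an Arid1a summit and 0.831 without. Value moved along with this division, since the median highest WT value was 3.67 at WT-marked starts with an Arid1a summit and 4.76 at those without. Among starts with a highest WT value from 2 to 3, the share also marked in KO cells was 28.2% (22.6-34.7) with an Arid1a summit and 53.7% (50.3-57.0) without. From 4 to 5 it was 68.5% (60.0-75.9) and 85.6% (82.6-88.2). At 10 or more the shares were 94.1% (88.7-97.0) and 94.9% (93.4-96.1), with intervals that overlap. CpG-rich starts were kept in 76.1% of cases and CpG-poor starts in 72.4%. CpG-rich sequence, here an observed to expected CpG ratio of at least 0.6 and a GC content of at least 50% in 501 bp, was found at 62.5% of the starts with strong summits in both genotypes, at 50% of those with a strong WT and no KO summit and at 46.7% of those with a strong KO and no WT summit, against 48.9% of all starts.

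Over 2 kb from gene starts, 4.57% (4.13-5.06) of strong matched WT summits and 3.17% (2.54-3.96) of strong unmatched ones lay in CpG-rich sequence, and 4.82% (4.28-5.42) and 2.60% (2.06-3.28) on the KO side. Only 0.319% of WT and 0.299% of KO summits had summits of at least 6 of the 8 lists within 1 kb, a sign of regions enriched with every antibody. Among the 10 leading shared starts, Fcgr3 (39.9 in WT and 41.2 in KO cells) had summits that met this condition.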

How the data were processed

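The deposited files were peak lists of 1 ChIP-seq library each, 8 in all, without header. To make them, the authors mapped reads with Bowtie2 (build mm10), discarded poorly mapped ones by SAMtools and duplicates by Picard, and ran MACS2 with the input of that genotype as control. Versions were not given in the sources used here. Libraries were made with antibody ab108245 for H3K27me3, by the NEBNext kit, and read on a HiSeq-2500. Column 5 of the lists as the authors deposited them is the −log10 q-value of the summit. Peak width, fold enrichment and read depth were not used here, and the 2 input libraries had no file, so the depth is unknown. Because the −log10 q-value grows with depth, it was used within a list, and values of the genotypes are set side by side with no order read from them.

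From these files, summits on the 19 autosomes were kept and matched where the nearest summit of the other list lay within 1 kb. The outermost annotated start of each protein-coding gene was taken from GENCODE vM21 on GRCm38, which is the same assembly as mm10, with a window of 2 kb. GC and CpG were counted in 501 bp of the RefSeq GRCm38.p6 sequence, and the printed sequences came from it. Shares have 95% Wilson intervals, and ratios of counts exact binomial ones. Neighbouring summits are not independent. Analyses used Python 3.11.15, numpy 2.4.6 and scipy 1.17.1, and matching was tested on simulated lists with planted matches. The members, the 49 gene lists and the rules were chosen with earlier results of these data known.

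Named genes were the 10 with the highest lower value of both genotypes (1 for each 100 kb), the 10 with the highest value of at least 5 in one genotype only, without a summit of the other within 2 kb or within 10 kb, the genes the study singles out, and up to 4 of each list with the highest value in each state. Fgf4, Fgf23, Foxa1, Hoxd3, Hoxd4, Hoxd9 and the hair keratins were named after their values were seen. Symbols of other gene families that a name stem had caught were dropped from the glutamate and the serotonin receptor lists after their values were seen. A few genes that the rule picks are not reported here. Alternatives covered the match distance, the value threshold, the number of summits, merged regions, the window and definition of starts, the sex chromosomes and regions shared by 6 or more lists.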

Additional observations from a re-analysis of the deposited data

Results flagged for a closer look

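Summits outside the autosomes entered no comparison. On chromosome X 811 summits were listed in WT and 388 in KO cells, and on chromosome Y 13 and 22. These counts are above the limit of 3 that a count of 0 allows, and they are given as values only, with 1 library per genotype.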

How the results depend on the processing

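With 1 library per genotype, no paired analysis was possible because no result comes from a test. Of 53 alternative values, 27 stayed within the 95% interval of the reported value or, for counts, within 1.5 times of it. Keeping chromosomes X and Y or leaving out regions with summits of at least 6 lists moved no result beyond these limits. Within 500 bp, 36% and 45.7% of WT and KO summits matched, and 23.4% and 28.6% of those of at least 5. Within 3 kb the shares were 79% and 90.5%, and 56.8% and 68.1%. With the same number of strongest summits from both lists they were 59.3% and 61.3%, so the difference between the genotypes narrowed, and with summits merged within 3 kb 58.3% and 73.4%. At a threshold of at least 10 in both lists 40.1% and 57.5% matched, and with a partner of any strength 77.5% and 69.2%, which reversed their order. The KO to WT ratio was 0.818 at a value of at least 5, 0.698 at a value of at least 10 and 0.829 after merging. Starts marked in both genotypes numbered 2260 with a window of 1 kb and 2340 with a value of at least 5 in either list. Starts marked in WT only numbered 819 at a value of at least 3 in both lists, 122 with a value of at least 5, and 538 where no KO summit lay within 10 kb. For KO only the last 2 counts were 152 and 120. At a value of at least 3, WT-only starts still outnumbered the 572 KO-only starts, and at a value of at least 5 they did not. Unknown depth and unknown peak width limit every comparison of the lists.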
